A study of Mus with 12 samples.

Results

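The expression of 10 genes for transport proteins that the yolk sac is known to make (Afp, Alb, Apoa1, Apoa4, Apob, Ttr, Trf and Rbp4) or to use for uptake (Cubn and Amn) was examined in the uterus of pregnant mice. Each of the 12 libraries came from the entire uterus of 1 pregnant mouse of the outbred ICR strain. The series describes the mice as 8 weeks old, while the methods state the age at mating, so that mice of the late days were older, and the labels name no other treatment or engineered allele. There were 4 groups of 3 mice by day after mating. The days E0.5 and E4.5 form the implantation stage and stand in 1 expression table, and the days E15.5 and E18.5 form the labor stage and stand in another. A gene was taken from each table as the row that bears its symbol and an Ensembl mouse transcript. All 10 genes were found in both tables, as 10 of 87235 rows at the implantation stage and 10 of 40787 rows at the labor stage. The labor row of Trf also holds Srprb and Gm20425, so its labor values cannot be assigned to Trf alone. The genes had been chosen because of their values in these late libraries, so all labor values of the 10 genes are given as a description without a test.

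The visceral endoderm of the mouse yolk sac is an absorptive epithelium that encloses the embryo throughout gestation. It takes up proteins and lipids from the maternal side through cubilin, a large endocytic receptor without a membrane anchor of its own, and amnionless, which anchors cubilin at the membrane. It also secretes many of the plasma proteins that the liver makes after birth, including alpha-fetoprotein, transferrin and apolipoproteins, and Afp is a classical marker of this tissue and of the fetal liver. Alb and Afp are neighbouring genes of 1 family, and their rows lie 14134 bases apart on chromosome 5 (Alb at 90460897 to 90476602 and Afp at 90490737 to 90508907, GRCm38, plus strand). Apoa1 (46228580 to 46230466) and Apoa4 (46240696 to 46243459) share a cluster on chromosome 9, where their rows lie 10229 bases apart.

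Values are FPKM, read fragments scaled to transcript length and library size, which allows levels of different genes to be compared within a library. The tables were assembled and normalised separately, so early and late values are set side by side and were not tested against each other. The early libraries hold 58020989 to 70906881 counts, while the depth of the late libraries is unknown. The uterine genes Esr1, Pgr, Hoxa10 and Hoxa11 were detected in all 12 libraries, and smooth muscle markers summed to between 184 and 3447 FPKM. E4.5 replicate 3 stood apart from the other early libraries. Its ovary markers (Cyp11a1, Star, Inha, Amh and Fshr) summed to 797 FPKM against 4.24 to 6.37 FPKM in the others, and its sums of smooth muscle markers (184 FPKM) and of the 4 uterine markers (9.61 FPKM) were the lowest. Counts of called genes and the values of the members that rest on this library are given with and without it.

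In the early uterus, the members ranged from genes without any reads to genes with reads in all 6 libraries. Afp and Alb, the major carrier proteins of fetal and adult plasma, had 0 counts in all 6 early libraries. A floor of 3 counts corresponds to 0.0423 to 0.0517 CPM (counts scaled to the library size) in these libraries, so levels below this were not detectable, and floors cover counting error only. A further 3 members, Apoa1, Apoa4 and Ttr, had 0 counts in all 3 E0.5 libraries. Trf, Rbp4, Apob and Cubn had reads in all 6 early libraries, but only Trf and Rbp4 reached 1 FPKM in each.

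**Figure D1:**
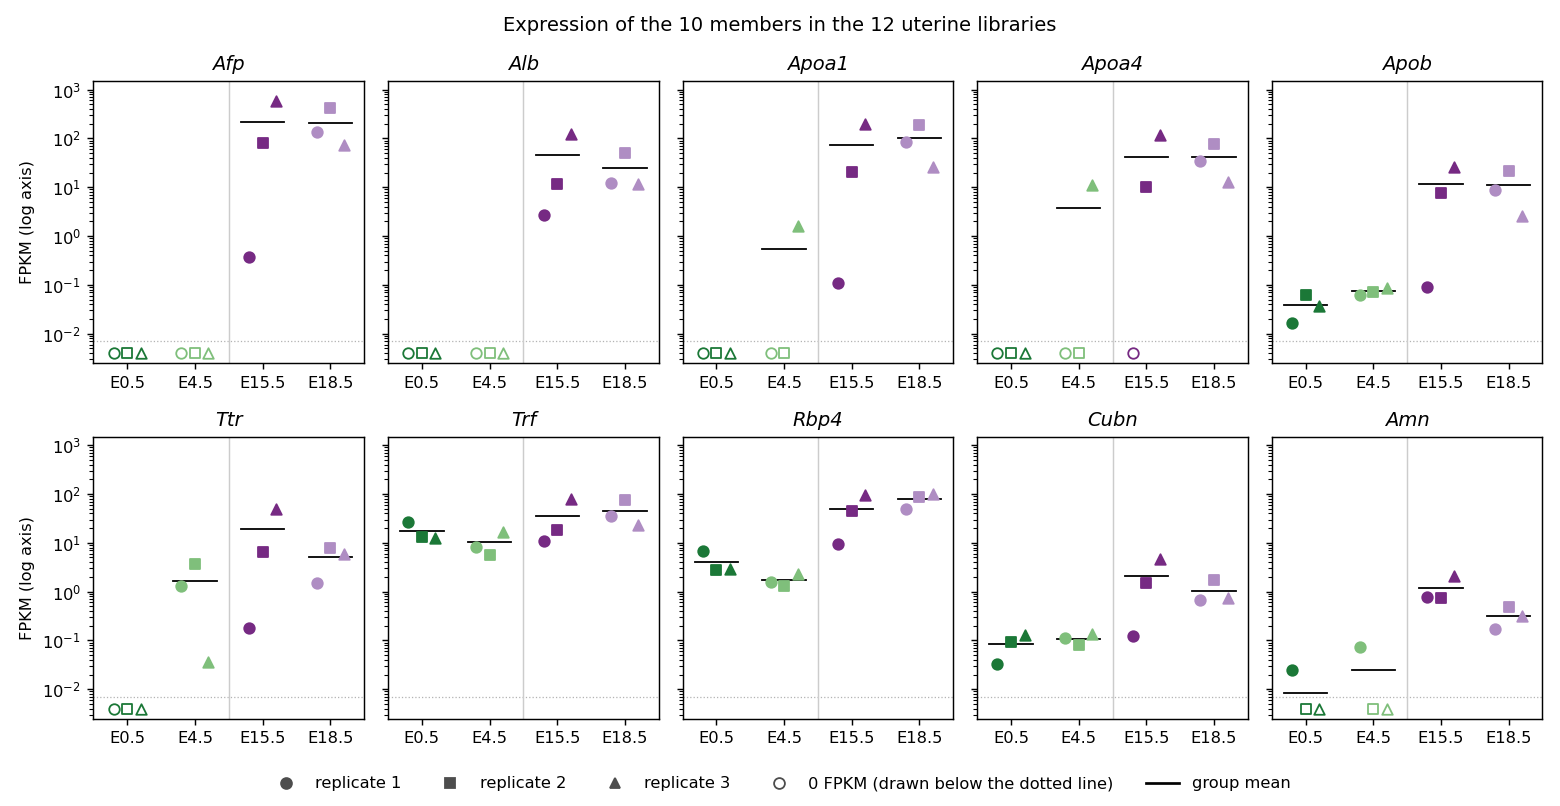
FPKM (log axis) of each of the 10 genes in the 12 libraries, grouped by day, with 1 symbol per mouse, a bar at the group mean and open symbols for 0 FPKM. The vertical line separates the implantation and labor tables, which were normalised separately. Afp and Alb are at 0 in all 6 early libraries, whereas Rbp4 and the row of Trf, which is merged with other genes at the labor stage, are present in all 12.

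Of the apolipoproteins, Apoa1, the main protein of high density lipoprotein, and Apoa4, a lipid carrier of intestinal lipoproteins, were found in 1 early library. Apoa1 had 161 counts (1.59 FPKM) in E4.5 replicate 3 and 0 in the other 5. Apoa4 had 1658 counts (11.3 FPKM) in the same library and again 0 in the other 5. This is the library with the high ovary markers, in which Cyp11a1, the enzyme of the first step of steroid synthesis, was at 378 FPKM and Star, which delivers cholesterol to it, at 238 FPKM. Whether the ovary markers and the apolipoproteins share a source was not tested. Gata4 and Cited1, from the list of yolk sac endoderm markers, were also highest there, with 11.3 and 10.3 FPKM against at most 0.139 and 0.325 FPKM in the other early libraries, and Gata4 is known in ovarian cells too. Gata6, Vil1 and Foxa1 of that list were highest there too, at 6.91, 0.529 and 0.0279 FPKM. Sox17 and Foxa2 had their lowest early values there, at 3.17 and 0.579 FPKM, and Foxa3, at 0.169 FPKM, was neither highest nor lowest. Hnf4a, a regulator of apolipoprotein genes in liver and yolk sac, was at 0.0186 FPKM in this library. Between the days, neither Apoa1 (adjusted p = 0.327) nor Apoa4 (adjusted p = 0.306) met the study's criterion for a difference, in a quasi-likelihood test with edgeR. Without E4.5 replicate 3, both genes have 0 counts in every early library. Apob, the structural protein of very low and low density lipoprotein, had 21, 63 and 46 counts at E0.5 and 73, 83 and 98 counts at E4.5. Its FPKM values of 0.0168 to 0.0606 at E0.5 all lay under those of 0.0613 to 0.0862 at E4.5. With a mean of 0.0559 FPKM over the 6 libraries, Apob was below the minimum for a test.

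By the study's criterion, a gene differed when its log2 fold change reached 1 in either direction and its p without adjustment was under 0.05. The test took rows that averaged 0.1 FPKM or more in the early libraries, and 12.1% of the 52738 tested rows met the criterion (6.13% higher and 5.98% lower at E0.5), while 17.6% had such a p alone and 1.4% passed a Benjamini-Hochberg adjusted p of 0.05. Of the 10 members, 5 were tested and 2 of these met the criterion, Ttr and Rbp4. None passed the adjusted p in edgeR, and the same 2 had an unadjusted p under 0.05. In DESeq2 1 member, Ttr, passed the adjusted p. Apoa1, Apoa4 and Ttr entered the test only through their E4.5 libraries, so the number of members that met the criterion is not read as a result. Values did not overlap between the days for Rbp4 (higher at E0.5, as for 12.3% of tested rows) and for Ttr and Apob (higher at E4.5, as for 13.4%). The p-values measure the spread between mice of 1 day.

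Ttr encodes transthyretin, which carries thyroid hormone and, with retinol binding protein, vitamin A. It had 0 counts in the 3 E0.5 libraries and 132, 352 and 4 counts (1.31, 3.63 and 0.0370 FPKM) in the E4.5 libraries. Every E4.5 library thus held reads of Ttr, but replicate 3 held few of them, in contrast to Apoa1 and Apoa4, which were found in replicate 3 alone. Ttr was at least 52.9-fold lower at E0.5, from the mean of 2.41 CPM at E4.5 against the floor of 3 counts per library (adjusted p = 0.138 in edgeR). The bound was 78.7-fold without E4.5 replicate 3 (adjusted p = 0.0104 in edgeR) and 21.8-fold without E4.5 replicate 2. DESeq2 gave Ttr an adjusted p of 6.5e-06, and over the alternatives in edgeR and limma it ran from 0.0104 to 0.299. As Ttr entered the test only through E4.5, these p-values are given for completeness and the difference rests on the counts and the bound. The 4 counts of E4.5 replicate 3, on which the lack of overlap depends, lie near the floor of 3 counts. The bound thus comes mainly from E4.5 replicates 1 and 2. Placental and embryonic blood markers were almost absent in these libraries. The trophoblast list (Prl3b1, Prl8a9, Tpbpa, Gcm1, Syna, Synb, Ctsq and Psg21) summed to at most 0.354 FPKM at E4.5 and the Y-linked genes Ddx3y, Eif2s3y, Kdm5d and Uty, which maternal cells lack, to at most 0.0101 FPKM. Erythroid markers summed to 3.62 to 5.16 FPKM at E4.5, and the embryonic globins Hbb-bh1, Hbb-y and Hba-x were at 0.

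By the mean over all 6 early libraries, Trf and Rbp4 had the highest levels of the members, although Apoa4 in E4.5 replicate 3 and Ttr in E4.5 replicate 2 exceeded Rbp4. Trf encodes transferrin, the iron carrier of plasma, and was at 27.0, 13.3 and 12.6 FPKM at E0.5 and at 8.28, 5.68 and 16.7 FPKM at E4.5. The days overlapped because of E4.5 replicate 3. The log2 fold change of E0.5 over E4.5 was 0.81 (SE 0.46, adjusted p = 0.403 in edgeR). Without E4.5 replicate 3 it was 1.33 (adjusted p = 0.0993 in edgeR), and without E0.5 replicate 1 it was 0.39 (adjusted p = 0.733 in edgeR). These were the highest and lowest values with 1 library left out. Rbp4 encodes the plasma carrier of retinol and was at 6.66, 2.76 and 2.91 FPKM at E0.5 and at 1.58, 1.32 and 2.27 FPKM at E4.5. All E0.5 libraries lay above all E4.5 libraries. The log2 fold change of Rbp4 was 1.27 (SE 0.42, adjusted p = 0.194 in edgeR). Rbp4 no longer met the criterion without E0.5 replicate 1 (0.76, adjusted p = 0.408 in edgeR), E4.5 replicate 1 (1.26, adjusted p = 0.347) or E4.5 replicate 2 (1.098, adjusted p = 0.350).

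Adipocytes are a known source of Rbp4 outside the liver, and fat markers varied between the same libraries. The adipocyte list (Adipoq, Plin1, Cfd, Lep and Cidec, all 5 detected in every library) summed to 226, 76.1 and 74.3 FPKM at E0.5 and to 22.3, 7.50 and 79.9 FPKM at E4.5. E0.5 replicate 1, with the highest Trf and Rbp4, had the highest sum, and E4.5 replicate 2, with the lowest Trf and Rbp4, had the lowest. Cfd, the complement factor adipsin, made up most of it with 177 FPKM in E0.5 replicate 1 and 4.41 FPKM in E4.5 replicate 2. Adult hepatocyte markers summed to 76.4, 23.0 and 19.8 FPKM at E0.5 and to 2.10, 0.588 and 10.1 FPKM at E4.5. Their sum was highest and lowest in the same libraries as the fat sum. Cyp2e1, which fat also expresses, was the main part. Uox was at 2.93 to 4.14 FPKM at E0.5 and at most 1.13 FPKM at E4.5, and the other hepatocyte markers reached at most 0.0846 FPKM (Hpd). The part of either cell type in the levels of Trf and Rbp4 was not tested. In whole organs, fewer cells of a type and less RNA per cell cannot be told apart.

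**Figure D2:**
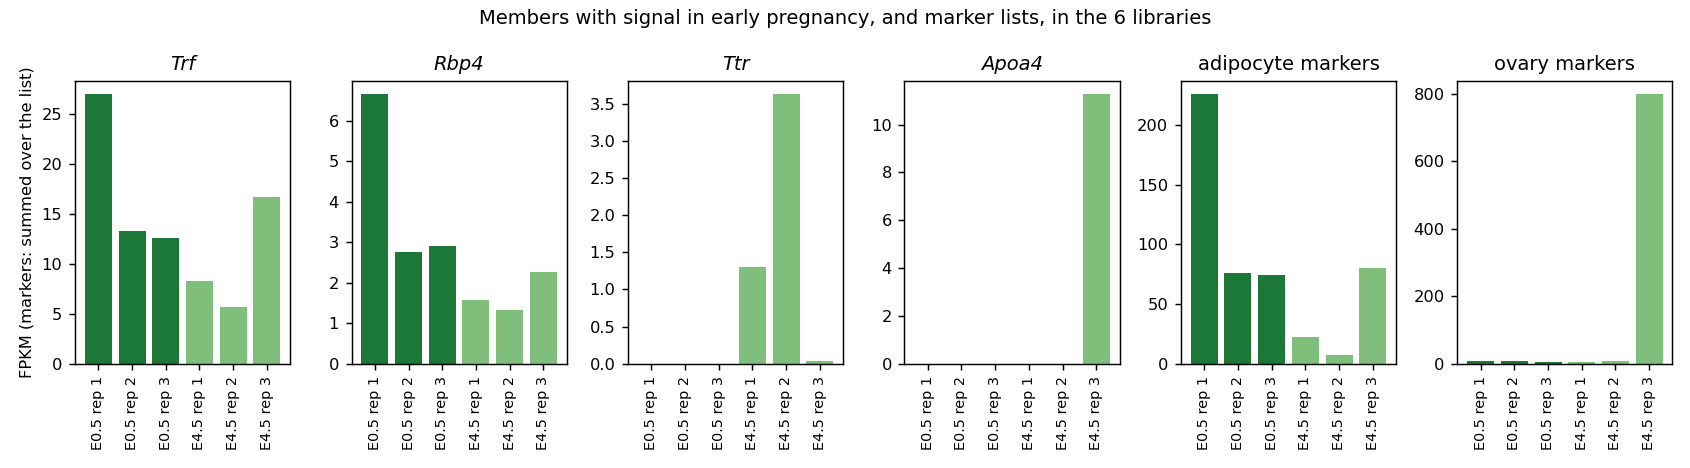
FPKM of Trf, Rbp4, Ttr and Apoa4 and summed FPKM of the adipocyte and ovary marker lists in the 3 E0.5 (dark) and 3 E4.5 (light) libraries, with 1 bar per mouse and a separate axis from 0 in each panel. Trf, Rbp4 and the adipocyte sum are highest in E0.5 replicate 1, Apoa4 and the ovary sum in E4.5 replicate 3, and Ttr in E4.5 replicate 2.

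The uptake receptors were scarce in the early uterus. Cubn had 43, 102 and 165 counts at E0.5 and 146, 97 and 162 counts at E4.5, which is 0.0332 to 0.126 and 0.0791 to 0.134 FPKM, and the days overlapped. Amn had 4 counts in E0.5 replicate 1, 12 counts in E4.5 replicate 1 and 0 in the other 4 libraries. Neither reached the minimum for a test. Lrp2 (megalin), the receptor that cubilin works with, was at 0.595, 0.434 and 1.20 FPKM at E0.5 and at 7.42, 6.62 and 3.00 FPKM at E4.5. It met the criterion with a log2 fold change of -2.92 (SE 0.52, adjusted p = 0.0529 in edgeR), without overlap of the days.

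Lrp2 belongs to 5 lists of 60 genes of the same pathways, of which 47 were tested at the implantation stage. Of these, 4 were higher and 9 lower at E0.5 by the criterion, which is 27.7% of the tested genes against 12.1% of all rows. The 9 include 2 genes, Fga and Fgg, that entered the test only through their E4.5 libraries, so nothing is read from this share. Their median log2 fold change was -0.15 against -0.03 over all tested rows. Without E4.5 replicate 3, 6 were higher and 9 lower. Among all rows, those past the adjusted p went from 739 to 3534 without this library. The 12.1% is from the fit with all libraries, so counts without this library are not set against it. Of the 9 tested lipoprotein genes, 0 met the criterion in edgeR or in DESeq2, and 0 had an unadjusted p under 0.05. Without E4.5 replicate 3, 1 of them, Apoc1, met it as higher at E0.5, having entered the test only through E0.5. Of 13 endocytosis genes, Lrp2 and Scarb1, a receptor for high density lipoprotein, were lower at E0.5. Scarb1 was at 73.5 FPKM in E4.5 replicate 3 and at most 6.48 FPKM in the other early libraries.

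In the retinoid list, 1 of 8 tested genes was higher and 3 were lower at E0.5 (1 and 2 without E4.5 replicate 3, where Rdh11 was lost), and these held both genes of the lists that passed the adjusted p. Lrat, which esterifies retinol for storage, had a log2 fold change of -2.76 (SE 0.37, adjusted p = 0.0291 in edgeR). Its level rose from 0.481, 0.555 and 0.737 FPKM at E0.5 to 3.28, 2.79 and 6.26 FPKM at E4.5. Rdh10, which oxidises retinol to retinal, fell from 10.9, 10.8 and 9.45 FPKM to 4.65, 4.59 and 3.04 FPKM (log2 fold change 1.36 for E0.5 over E4.5, SE 0.22, adjusted p = 0.0456 in edgeR). Over the 12 alternatives, the adjusted p of Lrat and that of Rdh10 each stayed under 0.05 in 6. Both calls were lost with a replicate block (0.0877 and 0.114 in edgeR) and without any 1 library other than E4.5 replicate 3, at up to 0.154 for Lrat and 0.188 for Rdh10 without E0.5 replicate 2, while the direction stayed the same. Stra6, the receptor for retinol binding protein, was at 1.29 to 1.61 FPKM at E0.5 and at 13.3, 12.1 and 3.09 FPKM at E4.5 (log2 fold change -2.76, adjusted p = 0.0652 in edgeR). Rbp4 and its receptor thus differed between the days in opposite directions, both by the criterion and neither by the adjusted p.

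In the iron list, 3 of 9 tested genes were higher and 2 lower at E0.5 by the criterion (3 and 1 without E4.5 replicate 3). Slc40a1 (ferroportin), the iron exporter, was at 24.1, 40.7 and 47.2 FPKM at E0.5 and at 0.974, 1.56 and 6.47 FPKM at E4.5 (log2 fold change 3.68, adjusted p = 0.0705 in edgeR). Cp, the plasma ferroxidase ceruloplasmin, had a log2 fold change of 1.901 (adjusted p = 0.0934), and Heph, a membrane ferroxidase, of -1.28 (adjusted p = 0.275 in edgeR), which was lost without E4.5 replicate 3 (-0.41). Lrp2, Scarb1, Lrat, Stra6, Rdh10, Slc40a1 and Cp met the criterion without that library too. Of the plasma protein list, 8 of 14 genes were tested and 2 were lower at E0.5 by the criterion, Fga and Fgg. These fibrinogen chains had 0 FPKM at E0.5 and at most 1.002 and 0.944 FPKM at E4.5, both in replicate 1, and so their calls are not read as a result. Without E4.5 replicate 3, 1 plasma protein gene was higher at E0.5 (Hp) and 4 were lower (Fga, Fgg, Hpx and Kng1). Kng1, at 0.0371, 0 and 0 FPKM at E0.5, likewise entered this test only through E4.5, so its call is not read as a result.

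In late pregnancy all 10 members were listed, and the values of the days overlapped for 9 of them. Among all 30928 tested rows, values did not overlap for 10.9% with E18.5 above and for 8.96% with E15.5 above, and nothing is read from the members' count because their late values chose them. Their summed FPKM was 24.7, 202 and 1285 at E15.5 and 363, 942 and 256 at E18.5, against 10.8 to 33.7 in the early libraries. In E15.5 replicate 3 they made up 0.271% of all FPKM of the library. In E15.5 replicate 1, 9 members had their lowest late value, and 3 (Alb, Trf and Rbp4) reached 1 FPKM. In the other 5 late libraries, 8 members reached 1 FPKM throughout, all but Cubn and Amn.

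Afp was at 0.366, 80.2 and 586 FPKM at E15.5 and at 135, 427 and 71.8 FPKM at E18.5, a span of 1602-fold. Its means of 222 ± 318 (SD, n = 3) and 211 ± 190 FPKM (SD, n = 3) were close, with SDs near or above the means. Alb was at 2.75, 11.8 and 125 FPKM at E15.5 and at 12.01, 50.1 and 11.5 FPKM at E18.5. The libraries ranked in the same order for both genes, but in E15.5 replicate 1 Alb exceeded Afp, at 752% of its level, whereas in the other 5 libraries it was at 8.90% to 21.3%.

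Among the apolipoproteins, Apoa1 spanned 1836-fold over the late libraries. It was at 0.109, 20.9 and 200 FPKM at E15.5 and at 85.1, 190 and 26.2 FPKM at E18.5. Apoa4 was listed at 0 in E15.5 replicate 1 and was at 10.0 and 116 FPKM in the other E15.5 libraries and at 35.2, 78.6 and 12.7 FPKM at E18.5. Apob was at 0.0899, 7.73 and 26.4 FPKM at E15.5 and at 8.97, 21.8 and 2.62 FPKM at E18.5. All 3 genes were lowest in E15.5 replicate 1 and highest in E15.5 replicate 3.

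Of the hormone, vitamin and iron carriers, Ttr varied most. It was at 0.178, 6.44 and 49.9 FPKM at E15.5 and at 1.47, 7.70 and 5.93 FPKM at E18.5. The merged row with Trf was at 10.7, 17.9 and 79.0 FPKM at E15.5 and at 36.1, 76.4 and 23.5 FPKM at E18.5, a span of 7.38-fold, the narrowest of the members with a value above 0 in every late library. Rbp4 was at 9.56, 44.7 and 95.0 FPKM at E15.5 and at 48.2, 88.2 and 101 FPKM at E18.5. It was the only member whose highest late value was at E18.5, in replicate 3. In E15.5 replicate 1, the rows of Trf (merged with Srprb and Gm20425) and Rbp4 had the highest levels of the 10.

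Cubn was at 0.123, 1.49 and 4.72 FPKM at E15.5 and at 0.664, 1.74 and 0.737 FPKM at E18.5. Amn was at 0.776, 0.722 and 2.08 FPKM at E15.5 and at 0.170, 0.476 and 0.316 FPKM at E18.5. Amn departed from the other members in that its lowest late value was in E18.5 replicate 1 and in that its groups did not overlap. Unlike the receptor it anchors, it was as high in E15.5 replicate 1 as in E15.5 replicate 2.

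The direction between the late days depended on single libraries. The mean difference of log2(FPKM + 0.1), E18.5 minus E15.5, was positive for 7 of the 10 members, for 3 without E15.5 replicate 1 and for 9 without E15.5 replicate 3. For Afp it was 2.52 with all libraries, -0.43 without E15.5 replicate 1 and 4.72 without E15.5 replicate 3. With a pseudocount of 0.01, the difference of Ttr turned from -0.10 to 0.05, and with a pseudocount of 1 that of Amn went from -1.53 to -0.68 and that of Apob from 1.26 to 0.55. By the mean FPKM, 4 members were higher at E18.5. The difference was largest for Apoa1 with 2.97 (0.21 without E15.5 replicate 1) and most negative for Amn with -1.53 (-1.74 without E15.5 replicate 1 and -1.08 without E15.5 replicate 3). With a pseudocount of 0.01, Apoa4, listed at 0 in E15.5 replicate 1, had a larger difference (3.85) than Apoa1 (3.24). With each library left out in turn, the difference of Amn stayed below 0, those of Apoa1, Trf and Rbp4 stayed above 0, and that of Afp did not keep its sign.

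The members varied together over the 6 late libraries. Correlations are of log2(FPKM + 0.1), are given as a description, and share the libraries and their unknown depth. Pearson's r with Afp over the 6 libraries was 0.996 for Apoa4, 0.993 for Apoa1, 0.981 for Apob and 0.926 for Rbp4, and between 0.863 and 0.891 for Alb, Ttr, Trf and Cubn. For Amn it was 0.03. Since E15.5 replicate 1 was far below the other libraries, r was also taken over the other 5. Without it, r was at least 0.924 for Alb (0.956), Apoa1 (0.953), Apoa4 (0.973), Apob (0.924) and Trf (0.973), and was 0.636 for Ttr, 0.454 for Rbp4, 0.783 for Cubn and 0.589 for Amn. When E15.5 replicate 3 was left out as well, over 4 libraries, r was 0.885 to 0.969 for the first 5 genes and 0.142 for Ttr, 0.262 for Rbp4, 0.530 for Cubn and 0.0183 for Amn. The relation of Ttr and Rbp4 with Afp thus rested on the libraries at either end. Spearman's rho with Afp over 6 libraries was 1 for Alb and Apob, 0.943 for Apoa1, Apoa4 and Trf, 0.829 for Ttr and Cubn, 0.429 for Rbp4 and 0.143 for Amn.

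**Figure D3:**
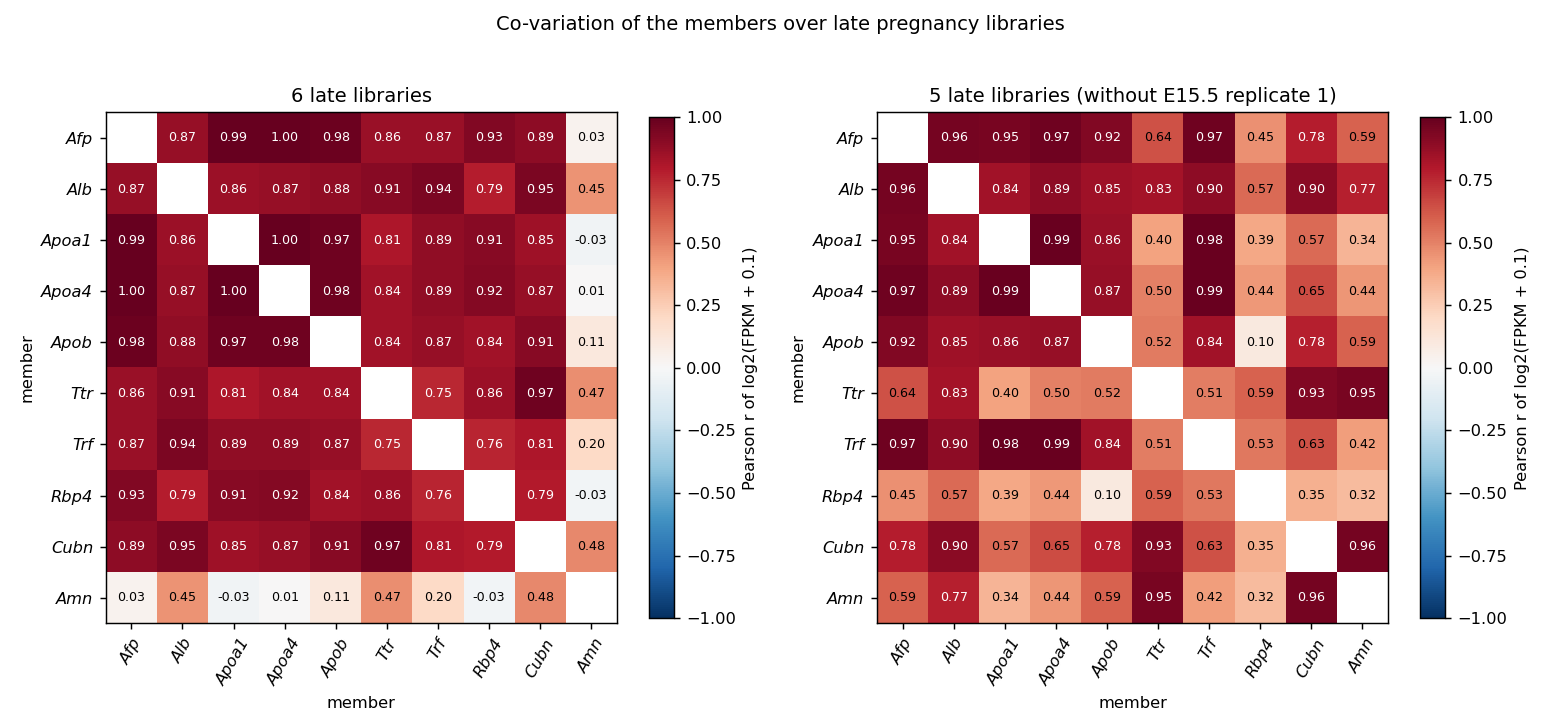
Pearson's r of log2(FPKM + 0.1) for each pair of members, over the 6 late libraries (left) and over 5 without E15.5 replicate 1 (right), on a colour scale from -1 to 1. Afp, Alb, Apoa1, Apoa4, Apob and Trf keep high r among themselves in both panels, whereas Rbp4 and Afp go from 0.93 to 0.45. Ttr, Cubn and Amn have r of 0.93 to 0.96 with each other in the right panel and of 0.47 to 0.97 in the left.

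Of the 45 pairs of members, 14 had r of at least 0.9 over the 6 libraries, and r ran from -0.03 to 0.999. The highest was that of Apoa1 with Apoa4, the neighbours on chromosome 9, which also was 0.991 over 5 libraries. Over the 5 libraries the uptake genes Cubn and Amn had r of 0.961 with each other, and Ttr had r of 0.927 with Cubn and 0.953 with Amn. Over all 6 libraries these values were 0.478, 0.970 and 0.465. Over the 4 libraries without E15.5 replicates 1 and 3 they were 0.854, 0.727 and 0.825. Against Afp, 4 of the other 9 members had r of at least 0.9 over 6 libraries and 5 over 5 libraries. Over all 23763 rows compared, 4.92% had such an r over 6 libraries (median 0.0094) and 1.59% over 5 (median 0.0885). Because their late values chose the members, nothing is read from the members' count here.

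Relative to Afp, members differed in how constant they were. Over the 5 libraries without E15.5 replicate 1, Apoa4 was at 12.5% to 26.1% of the FPKM of Afp, Apoa1 at 26.1% to 63.1%, Apob at 3.65% to 9.63% and Trf at 13.5% to 32.7%. These ranges, like that of Alb, each spanned at most 2.64-fold, whereas the ranges of Rbp4 and Ttr spanned 8.70-fold and 7.83-fold. Rbp4 ranged from 16.2% in E15.5 replicate 3 to 141% in E18.5 replicate 3, and Ttr from 1.09% in E18.5 replicate 1 to 8.52% in E15.5 replicate 3. Cubn was at 0.408% to 1.85% and Amn at 0.111% to 0.901%. In E15.5 replicate 1, Trf was at 2926% and Rbp4 at 2613% of Afp. Afp itself made up 1.48% of the summed FPKM of the members in E15.5 replicate 1 and 28.0% to 45.6% in the other 5.

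The 10 rows most like Afp, by r over the 6 late libraries among 3580 rows with at least 10 FPKM in 1 of them, held 2 members, Apoa4 and Apoa1. Their r was 0.987 to 0.996. Spp2 (0.992), a secreted phosphoprotein, went from 0 FPKM in E15.5 replicate 1 to 12.6 FPKM in E15.5 replicate 3. Serpina1b (0.993), a plasma protease inhibitor of a family of nearly identical copies, went from 0 to 11.2 FPKM in the same libraries, and its reads may be split with other copies. The other rows were Pmp22, a myelin membrane protein that other cells also make, Tmem248, Fam120a, Lima1, Map3k3 and the row of Chd9 with Gm45640 and Gm45643. Several of these had a high r over a narrow range, such as Tmem248 with 10.7 to 13.2 FPKM and Map3k3 with 10.2 to 12.02 FPKM. Over 5 libraries, r of the 8 rows that are no members ran from 0.878 for the row of Chd9 to 0.988 for Spp2, with 0.970 for Pmp22, 0.961 for Tmem248, 0.952 for Fam120a and 0.950 for Serpina1b.

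Other genes of the same pathways were followed in the late libraries, where 56 of the 60 genes of the lists were tested. With limma on log2(FPKM + 0.1), 3 were higher and 3 lower at E18.5 by the criterion, which is 10.7% of them against 6.05% of all 30928 rows (3.11% higher and 2.93% lower). Without E15.5 replicate 1, 3 were higher and 6 lower, while rows past the adjusted p went from 8 to 29 among all rows. The 6.05% is from the fit with all libraries, so counts without this library are not set against it. With or without a trend in limma, 0 of the pathway genes passed the adjusted p, which 0.0259% of rows did with the trend. At an unadjusted p under 0.05 alone, 10 of the pathway genes and 12.2% of all rows were called. The median log2 fold change of the 56 genes was 0.03 against 0.02 over all rows. Cp was at 3.40, 4.14 and 4.88 FPKM at E15.5 and at 13.6, 13.6 and 9.88 FPKM at E18.5 (log2 fold change 1.55, SE 0.19, adjusted p = 0.0722 in limma).

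Rdh10, like Cp, met the criterion in both tables, with a log2 fold change of 1.36 at the labor stage (adjusted p = 0.240 in limma) from 3.91, 4.68 and 8.43 FPKM at E15.5 to 22.7, 11.3 and 10.6 FPKM at E18.5. Apoa2, a protein of high density lipoprotein, was at 1.02, 3.36 and 14.1 FPKM at E15.5 and at 0.487, 0.580 and 0.457 FPKM at E18.5 (log2 fold change -2.65, adjusted p = 0.282 in limma). Within each day, Apoa2 had the same order of libraries as Afp, and its r with Afp was 0.256 over 6 libraries and 0.447 over 5. Pltp, which transfers phospholipids between lipoproteins, was higher at E18.5 (1.25, adjusted p = 0.377 in limma), and this was lost without E15.5 replicate 1 (0.67). The other 2 genes lower at E18.5 by the criterion, Crabp1 and Ambp, lay below 1 FPKM on average and reached the minimum for a test only through their E15.5 libraries, so their calls are not read as a result. Of the 13 endocytosis genes, 0 met the criterion in limma with or without a trend, and 1 had an unadjusted p under 0.05.

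Of the 56 pathway genes, 8 (14.3%) had r of at least 0.9 with Afp over 6 libraries and 8 (14.3%) over 5, against 4.92% and 1.59% of all rows, and 4 did so over both. These 4 were Apoc1 and Apom, which are small apolipoproteins, the fibrinogen chain Fgg and prothrombin, F2. Fgg was at 0, 1.84 and 10.3 FPKM at E15.5 and at 3.25, 10.1 and 1.001 FPKM at E18.5, the same order of libraries as for Afp. The plasma protein list held 3 genes with such an r over 6 libraries and 5 over 5, of 14 tested. The lipoprotein list held 2 and 3 of 11, the endocytosis list 1 and 0 of 13, the retinoid list 2 and 0 of 9, and the iron list 0 and 0 of 9. Lrp2, the partner of cubilin, had r of 0.894 over 6 and 0.814 over 5 libraries, and was at 0.450, 2.56 and 7.34 FPKM at E15.5 and at 2.01, 2.76 and 1.25 FPKM at E18.5.

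The name of the gene set was checked against cell type markers. Of the 9 yolk sac endoderm markers, Foxa1, Foxa2, Sox17 and Gata6 are also known in the uterus. The sum of the list was 3.83 to 7.83 FPKM at E15.5 and 4.30 to 6.38 FPKM at E18.5, against 6.48 to 33.0 FPKM in the early libraries. Hnf4a, which the uterus barely expressed (at most 0.0452 FPKM in an early library), was at 0, 0.290 and 1.83 FPKM at E15.5 and at 0.260, 0.461 and 0.207 FPKM at E18.5, lowest and highest in the same libraries as Afp. Foxa3 was at 0, 0.0171 and 0.516 FPKM at E15.5 and at 0.0964, 0.180 and 0.0685 FPKM at E18.5. The other markers of the list varied in how they followed Afp. Gata4 was at 0.179, 0.0701 and 0.0157 FPKM at E15.5 and at 0.0705, 0.0584 and 0.0874 FPKM at E18.5, lowest where Afp was highest. Pearson's r with Afp over 6 and over 5 libraries was 0.875 and 0.849 for Hnf4a, 0.7499 and 0.910 for Foxa3, 0.591 and 0.931 for Foxa2, and 0.582 and 0.913 for Vil1, a protein of absorptive microvilli. It was 0.791 and 0.407 for Cited1, 0.0668 and 0.524 for Sox17, and -0.02 and -0.81 for Gata6, while Gata4 and Foxa1 were below the minimum of 0.1 FPKM. Thus 0 of the 7 markers compared had r of at least 0.9 over 6 libraries and 3 had it over 5, against 4.92% and 1.59% of all rows. Adult hepatocyte markers summed to 0.914 to 5.66 FPKM at E15.5 and 1.72 to 2.37 FPKM at E18.5, with Cyp2e1, which fat also expresses, as the main part, and in E15.5 replicate 3, where Afp was highest, the sum was lowest. The highest late values of the other hepatocyte markers were 0.383 FPKM for Tat, 0.291 FPKM for Uroc1, 0.136 FPKM for Uox, 0.0321 FPKM for Hpd and 0.0187 FPKM for Cps1, and Cyp3a11 and Cyp1a2 were not analysed here at the labor stage. The tissue that supplied the transcripts of the members was not measured, so the name describes where these genes are known to be expressed.

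Over the 6 late libraries together, trophoblast, Y-linked, erythroid and fat markers did not follow the members' order of libraries. Trophoblast markers summed to 35.3, 6.70 and 3.86 FPKM at E15.5 and to 51.5, 68.6 and 49.1 FPKM at E18.5. They were lowest in E15.5 replicate 3, where Afp was highest, but at E18.5 they had the same order of libraries as Afp. Y-linked genes summed to 0.0316, 0.325 and 0.00305 FPKM at E15.5 and to 0.332, 0.394 and 0.405 FPKM at E18.5. Erythroid markers summed to 5.10, 68.2 and 8.40 FPKM at E15.5, with Hbb-y, an embryonic globin, at 57.98 FPKM in replicate 2, and to 2.31 to 2.77 FPKM at E18.5. Fat markers summed to 44.5, 46.6 and 7.73 FPKM at E15.5 and to 79.3, 34.8 and 48.7 FPKM at E18.5. They too were lowest in E15.5 replicate 3, which held the highest late value of the merged Trf row. Rbp4 was highest of the E15.5 libraries there, but its highest late value was in E18.5 replicate 3. Ovary markers summed to 16.0 to 27.8 FPKM and uterine markers to 47.2 to 58.3 FPKM over the late libraries. Smooth muscle markers summed to 2165, 2335 and 3081 FPKM at E15.5, in the order of Afp, and to 2702, 3150 and 3447 FPKM at E18.5, where they were highest in replicate 3 with the lowest Afp of that day. Over 6 and 5 libraries, r with Afp was 0.936 and 0.685 for the smooth muscle actin Actg2. It was 0.867 and about 0 for the smooth muscle myosin Myh11. For the other markers of this list it was 0.517 and 0.129 (Des), 0.470 and 0.296 (Acta2), and -0.428 and 0.379 (Cnn1). The part of each cell type in the members' values was not tested.

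**Figure D4:**
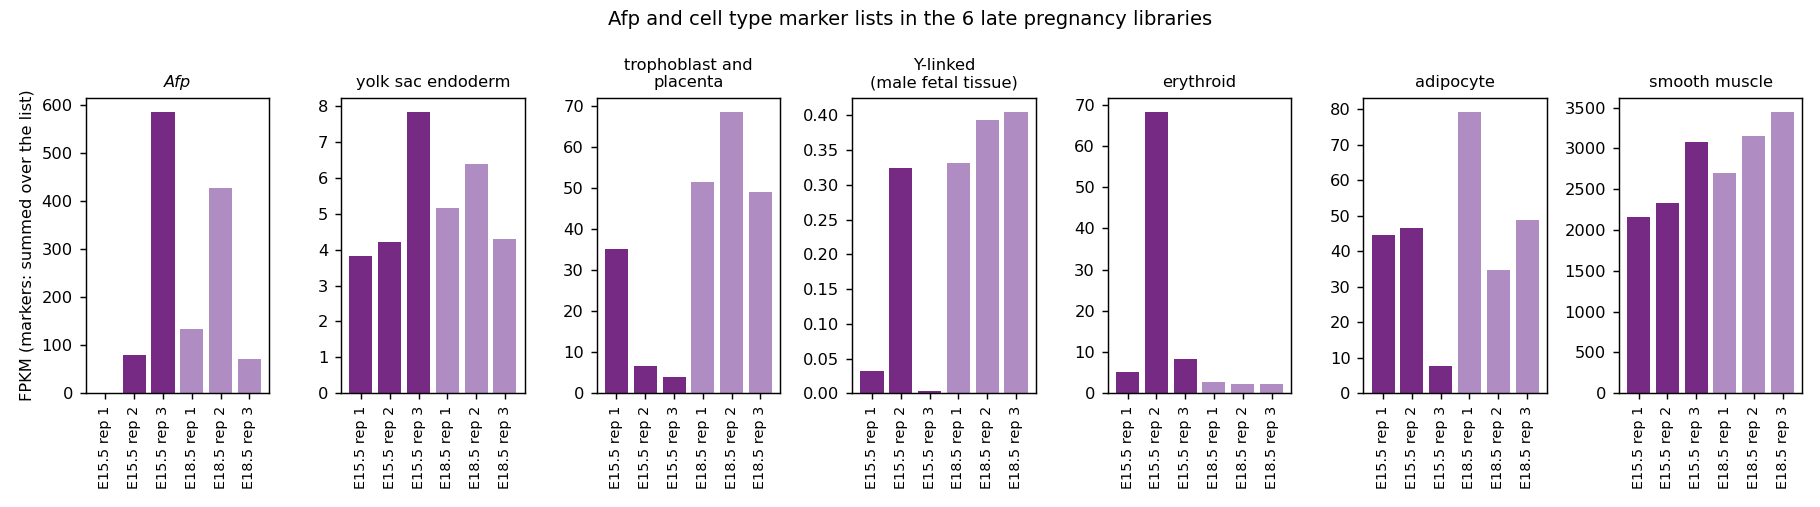
FPKM of Afp and summed FPKM of 6 marker lists in the 3 E15.5 (dark) and 3 E18.5 (light) libraries, with 1 bar per mouse and a separate axis from 0 in each panel. Afp and the yolk sac endoderm sum are highest in E15.5 replicate 3, where the trophoblast, Y-linked and adipocyte sums are lowest.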

How the data were processed

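Total RNA of whole uteri was sequenced by the authors, 1 mouse per library. The labels describe poly(A) selection and the study's methods ribosomal RNA depletion, so the library type is uncertain, and transcripts with short or no poly(A) tails may be affected. Per the study's methods, reads were trimmed with Cutadapt, aligned with Bowtie2 and Tophat2, assembled with StringTie and quantified with Ballgown. The submitters' processing notes also name Bowtie 0.12.2, HISAT2 2.0 and StringTie 1.3.0, with the builds mm8 and mm10. All 10 members lie at the GRCm38 position of the RefSeq gene with the same name. The FPKM values were made and deposited by the authors as 1 gene table per stage. The counts of the implantation stage, whole numbers, were deposited by the authors beside the FPKM, where 0.0001 stands for 0 and was set back to 0. The labor table has no counts, so its depth is unknown. Rows without a gene name (1.02% to 1.86% of counts) were left out of library sizes and count tests.

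In R 4.3.3, early counts were tested by the quasi-likelihood method of edgeR 4.0.16 with TMM factors. Late values, as log2(FPKM + 0.1), were tested by limma 3.58.1 with a trend. Both used the 6 libraries of a stage and rows averaging 0.1 FPKM or more. A fold change on this scale understates that of low genes. Adjusted p-values are Benjamini-Hochberg over all tested rows. The tests were checked on simulated data. Alternatives were DESeq2 1.42.0, upper quartile factors, limma on the early log2(FPKM + 0.1) values, other filters and pseudocounts, a replicate block, and leaving out each library. No source says that replicate numbers pair mice, and same-numbered libraries did not deviate together (r of -0.0743 to 0.0229), so the numbers were not used as pairs. Summaries used pandas 2.3.3 in Python 3.11.15.

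The members and the 14 gene lists (5 pathway and 9 marker lists) were chosen with earlier results of these data known. Besides the members, the text names, per pathway list and stage, up to 3 genes that met the criterion with the largest fold change and at least 1 FPKM, the 10 rows most like Afp, and defining markers. Genes named for their r with Afp, Lrp2 at the labor stage, Crabp1, Ambp, Fga and Fgg were picked after their values were seen. RefSeq sequences of the members were not used here. One yolk sac endoderm marker is not reported here and was left out of that list's sums.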

Additional observations from a re-analysis of the deposited data

Results flagged for a closer look

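Beside the row of Cubn described above, the implantation table holds 2 further rows named Cubn that have no Ensembl transcript and so were not taken. They stand here because they hold reads of a member outside the comparison. One lies at 13277009 to 13278360 on chromosome 2 (GRCm38), within the span of Cubn, and had 47, 85 and 148 counts at E0.5 and 20, 82 and 69 counts at E4.5. Its highest value, 148 counts (1.26 FPKM), was in E0.5 replicate 3, where the annotated Cubn row had 165 counts (0.126 FPKM). The other lies at 13323573 to 13323780 and had reads in 3 of the 6 libraries, at most 27 counts (1.71 FPKM) in E0.5 replicate 2. Values of the days overlapped for both rows, and no test was run on them.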

How the results depend on the processing

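The number of rows past the adjusted p at the implantation stage, 739, was 5294 with DESeq2, 1172 with a minimum of 1 FPKM and 0 with a replicate block, and ran from 0 (without E0.5 replicate 2) to 3534 (without E4.5 replicate 3) when single libraries were left out. The members that met the criterion there, 2, were 1 with a minimum of 1 FPKM, 4 with the replicate block and 1 to 3 with single libraries left out. At the labor stage the 8 rows past the adjusted p were 4 with a pseudocount of 1, 4 without a filter, 3 with a minimum of 1 FPKM, 27 without trend and 2 with the replicate block, and ran from 0 (without E18.5 replicate 1) to 29 (without E15.5 replicate 1 or E18.5 replicate 3). The pathway genes that met the criterion there, 6, ran from 4 to 10, with 10 without E15.5 replicate 3. The 13 of the implantation stage stayed between 10 and 15. The cause of these changes was not tested. Of the tests of single members between E0.5 and E4.5 under an alternative, 45 kept their direction and side of the criterion, 6 came to meet it and 3 no longer did, and none reversed. The 6 were Apoa4 (4), Apoa1 (1) and Trf (1), and the 3 were Rbp4. With 3 mice per day, an exact permutation test could not fall below p = 0.1. The unknown depth of the late libraries limits what can be said of their lowest values.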
